A study of Mus musculus with 36 samples.

Results

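The genes described here are 10 transcripts of lung macrophages that had been seen lower in Scnn1b-Tg mice than in wild-type (WT) mice at postnatal day (PND) 3 or 42: Gal, Epcam, Kazald1, Cpne5, Nt5e, Coro6, Tnfsf13b, Flt1, Trim59 and Inka1. All 10 were found among the 28940 features tested on the array, each taken as the feature annotated with that symbol alone, and for Tnfsf13b, which has 2 such features, as the one with the higher mean. Because the genotype differences at PND 3 and PND 42 chose these genes, those values are given below as a description with no test, and tests are confined to arrays of other ages or housing. The choice names PND 42 without saying which housing, so it is not certain that the germ-free arrays played no part in it.

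Lavage macrophages were collected from Scnn1b-Tg mice (Tg), in which a club cell (Scgb1a1) promoter drives overexpression of Scnn1b, which encodes a subunit of the airway sodium channel ENaC, and from their WT littermates, all on the C57Bl/6N Tac strain. The excess channel activity dehydrates the airway surface and impairs mucus clearance. Under specific pathogen-free (SPF) housing each genotype was sampled at PND 0 (3 arrays), PND 3 (4), PND 10 (4) and PND 42 (4), and germ-free (GF) mice of each genotype were sampled at PND 42 (3 arrays), which gives 36 arrays in 10 groups. Arrays of PND 0, 3 and 10 each held cells pooled from 3 pups, and those of PND 42 came from single mice. Lavage cells that bound a Ly-6G antibody had been removed on a magnetic column in all groups, so the RNA came from what was left, mostly macrophages. Tg and WT below stand for these macrophage preparations, in which fewer cells expressing a gene and less RNA per cell cannot be told apart.

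Alveolar macrophages arise from fetal monocytes that seed the lung around birth and acquire their adult program over the first days of life, under GM-CSF and TGF-beta, which raise the transcription factor PPAR-gamma. The mature cell clears surfactant and inhaled particles and is kept in place by local division. The 10 genes have no single pathway in common. They encode secreted proteins (Gal, Tnfsf13b and Kazald1) and cell surface proteins (Flt1, Epcam and Nt5e). The others encode proteins that act on the cytoskeleton or on membranes (Coro6, Inka1 and Cpne5) and a ubiquitin ligase (Trim59).

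Values are log2 intensities, so a difference of 1 is a 2-fold change, and array medians over the tested features lay between 3.72 and 4.06. A group mean at or below 4.06 is called near background here, and a fold change against such a mean is a lower bound. Macrophage transcripts were present in all groups. Of 24 measured alveolar macrophage markers, none or 1 was near background in each group. Their mean level on single arrays ran between 7.97 and 10.1. Scnn1b itself was read at 10.2 and 10.3 in Tg replicates 1 and 2 at PND 0, but at 5.47 in Tg replicate 3, inside the range of 4.06 to 6.69 of the WT arrays of that age. It was at 5.37 to 6.03 in Tg and 3.09 to 3.55 in WT at PND 3, and at PND 42 it was near background in most arrays, with 3.41 to 4.18 in Tg and 3.11 to 3.67 in WT over both housings. The 18 measured epithelial markers averaged 7.56 to 8.54 on PND 0 arrays and 4.18 to 4.88 on all later arrays. At PND 0 all 13 skeletal muscle markers were also higher in Tg, with a list mean of 5.81 to 7.10 in Tg and 3.50 to 3.81 in WT, and so were 7 of 12 fibroblast markers, while 5 of the 24 alveolar macrophage markers were lower in Tg. The part of these cells in the PND 0 values below was not tested. Gene spread within groups was widest at PND 0, with a median SD of 0.193 in Tg and 0.212 in WT against 0.134 to 0.168 in the other groups. In 2 further places an array stood apart for these genes and is named beside the results it touches, WT replicate 1 at PND 3 and Tg replicate 3 in GF housing.

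All 10 genes were matched to RefSeq promoter windows of GRCm38.p6, with 13 windows in all that run from 250 bases before to 50 bases after a transcription start. The windows of the 3 genes that rose first in WT pups, Flt1, Coro6 and Kazald1, are shown 5′ to 3′ on the strand of the gene, since the pairs of these 3 also had the most similar levels over the group means. Capitals mark exact matches, on either strand, to 8 motifs: PU.1 (GAGGAAGT), C/EBP (TTNNGNAA), AP-1 (TGANTCA), the cAMP response element CRE (TGACGTCA), E-box (CACGTG), the nuclear receptor hexamer (AGGTCA), which PPAR sites contain, the hypoxia element (ACGTG), which also lies within the E-box, and the TATA box (TATAAA).
Flt1, chr5:147725962-147726261, minus strand: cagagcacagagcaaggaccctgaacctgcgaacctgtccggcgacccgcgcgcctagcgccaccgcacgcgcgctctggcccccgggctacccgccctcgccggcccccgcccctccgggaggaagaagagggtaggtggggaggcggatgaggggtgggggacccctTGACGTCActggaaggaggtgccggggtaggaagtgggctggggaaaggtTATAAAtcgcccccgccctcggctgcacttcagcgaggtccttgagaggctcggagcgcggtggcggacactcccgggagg
Coro6, chr11:77463661-77463960, plus strand, the later of 2 starts: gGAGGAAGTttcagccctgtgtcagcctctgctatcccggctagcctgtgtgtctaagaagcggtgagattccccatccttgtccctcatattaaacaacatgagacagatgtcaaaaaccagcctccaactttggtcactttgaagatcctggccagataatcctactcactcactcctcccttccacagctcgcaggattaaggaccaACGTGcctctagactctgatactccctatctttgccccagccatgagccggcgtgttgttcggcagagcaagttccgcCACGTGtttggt
Kazald1, chr19:45074991-45075290, plus strand, the earlier of 2 starts: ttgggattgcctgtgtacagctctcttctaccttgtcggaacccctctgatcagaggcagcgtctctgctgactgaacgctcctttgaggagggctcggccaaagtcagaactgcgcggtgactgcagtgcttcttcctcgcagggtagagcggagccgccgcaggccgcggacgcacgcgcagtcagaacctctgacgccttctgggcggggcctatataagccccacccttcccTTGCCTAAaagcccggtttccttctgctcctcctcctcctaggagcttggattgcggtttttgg
The Flt1 window held a CRE that starts 81 bases before the transcription start, and a TATA box 31 bases before it. Of all 32851 promoter windows in the RefSeq table, 1.79% held the CRE and 13.6% the TATA box. The Coro6 window held the PU.1 motif at its upstream end, found in 3.2% of all windows, and carried an E-box after its start (7.15% of all windows) and a hypoxia element before it. Kazald1 had only a C/EBP match, in a form that 40.7% of all windows hold. No motif was common to the 3 windows. Coro6 and Kazald1 each had another window, not shown, which held no match to any of the motifs. Over the 13 windows, the hypoxia element matched in 4 (19.6% of all windows), the AP-1 motif in 2 overlapping windows of Tnfsf13b alone (7.81%) and the nuclear receptor hexamer in 0 (16.3%). Such matches describe the letters of these windows and do not show that a factor binds there.

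The 2 comparisons that chose the genes differed in which of them they touched. At PND 3 the Tg arrays all lay below the WT arrays for 6 of the 10 genes, Coro6, Flt1, Kazald1, Trim59, Gal and Inka1, where 5.92% of all features did so. At PND 42 in SPF housing this was so for 9 of 10, all but Trim59, where 5.64% of all features did so. Nothing is read from these shares, because the genes were picked on these arrays. The fitted Tg minus WT differences at PND 3 ran from -2.58 for Coro6, -1.92 for Flt1, -1.82 for Kazald1, -1.68 for Trim59, -1.42 for Gal and -1.28 for Inka1 to 0.40 for Tnfsf13b. At PND 42 in SPF housing they ran from -2.45 for Gal and -2.10 for Epcam to -1.17 for Coro6 and -0.18 for Trim59. Coro6, Flt1 and Trim59 thus had their larger difference in the neonate. Epcam, Cpne5, Nt5e, Tnfsf13b, Gal, Inka1 and Kazald1 had theirs in the adult, with Inka1 at -1.92 and Kazald1 at -2.06 there.

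**Figure D1:**
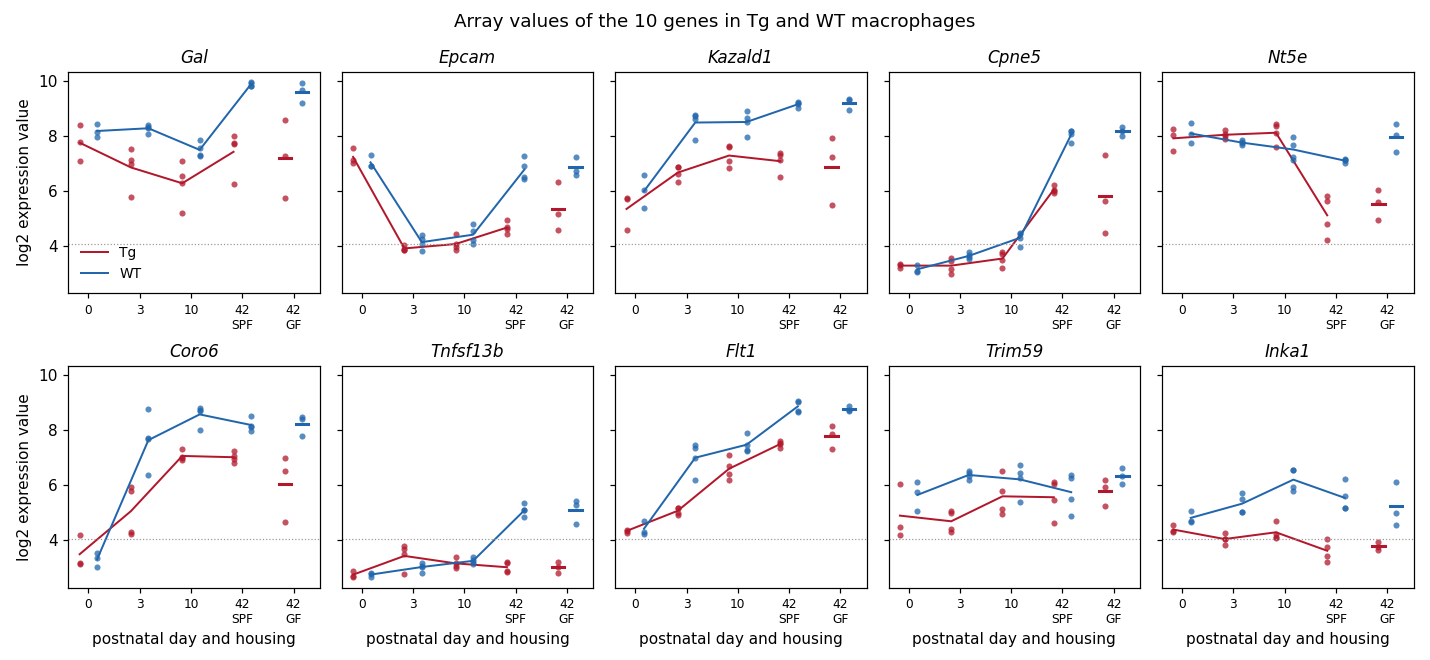
Log2 expression value of each gene on each of the 36 arrays, by age and housing (ages are evenly spaced, not to scale). Red points are Tg and blue points WT arrays, lines join the SPF group means, short bars are GF means, and the dotted line at 4.06 is the highest array median. In WT, Flt1 and Coro6 climb within days of birth, and Cpne5 and Tnfsf13b mainly between PND 10 and PND 42. At PND 42 the WT points lie above the Tg points for all genes but Trim59. Of all features, 5.64% in SPF and 12.1% in GF housing did so. The SPF arrays chose the genes and the GF arrays may have done so, so this order is a description only.

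Coro6 had the steepest rise of the 10 genes in the neonatal period. It encodes a coronin, a family of proteins that bind actin filaments. In WT macrophages it was read at 3.55, 3.04 and 3.36 at PND 0, then at 6.37, 8.78, 7.72 and 7.69 at PND 3, at 8.82, 8.71, 8.75 and 8.02 at PND 10 and at 8.50, 8.14, 7.99 and 8.13 at PND 42. The gene was thus near background at birth and close to its adult level within 3 days, apart from WT replicate 1 at PND 3, which was lower. That array also differed in Saa3 and Lcn2, which the study lists as raised in Tg at PND 3. Saa3 was at 9.15 on it, 4.22 to 4.52 on the other WT arrays and 9.26 to 11.37 in Tg of that age. Lcn2 was at 8.99 on it, 3.69 to 5.30 on the other WT arrays and 10.07 to 11.65 in Tg. The WT means at PND 3 include this array. In Tg macrophages the Coro6 values were 3.13, 4.19 and 3.18 at PND 0, 4.25, 4.30, 5.79 and 5.93 at PND 3, 6.99, 7.03, 6.93 and 7.32 at PND 10 and 7.26, 6.79, 6.94 and 7.08 at PND 42. Every Tg array from PND 3 on lay below every WT array of its age. The rise by PND 10 over PND 0 was 3.56 ± 0.46 in Tg (SE, adjusted p = 2.42e-07) and 5.26 ± 0.46 in WT (adjusted p = 2e-10), in the limma fit over all 36 arrays. At PND 10 the Tg minus WT difference of -1.51 (95% CI -2.37 to -0.64) missed the threshold at an adjusted p of 0.0671. It passed in 6 of 20 alternatives, among them the fit on the 8 PND 10 arrays alone (adjusted p = 0.00447), that without WT replicate 4 of PND 10 (0.0488), and that with 3 doubted libraries left out, Tg replicate 3 at PND 0, WT replicate 1 at PND 3 and Tg replicate 3 in GF housing (0.00689). In GF mice every Tg array was again below every WT array.

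Flt1 followed a similar course with less scatter. It encodes VEGFR-1, a receptor for VEGF-A and placental growth factor that is best known from endothelial cells and is also present on monocytes and macrophages. In WT macrophages it was 4.71, 4.23 and 4.33 at PND 0, 6.20, 7.36, 7.46 and 6.99 at PND 3, 7.26, 7.89, 7.46 and 7.28 at PND 10, and 8.66, 8.71, 9.04 and 9.05 at PND 42. In Tg macrophages it was 4.28, 4.40 and 4.36 at PND 0, 5.01, 4.91, 5.20 and 5.19 at PND 3, 6.40, 6.70, 7.10 and 6.21 at PND 10, and 7.62, 7.54, 7.49 and 7.35 at PND 42. The genotypes overlapped at birth and were separate at every later age, and the level was higher at each later SPF age in both. In GF mice Flt1 was at 8.17, 7.85 and 7.31 in Tg, against 8.69, 8.86 and 8.72 in WT. By PND 10 Flt1 had risen over PND 0 by 2.26 ± 0.23 in Tg (adjusted p = 2.31e-09) and 3.05 ± 0.23 in WT (adjusted p = 6.81e-12), and in GF mice at PND 42 it was above PND 10 by a further 1.17 ± 0.23 in Tg (adjusted p = 0.00167, lost with the compared groups alone at 0.0666) and 1.28 ± 0.23 in WT (adjusted p = 0.000917). At PND 10 Flt1 was 0.87 ± 0.21 lower in Tg (adjusted p = 0.0232). That call was lost in 6 of 20 alternatives, among them the fit on the 8 PND 10 arrays alone (adjusted p = 0.0971) and the fits without WT replicate 2 or 3 or Tg replicate 1 or 4 (adjusted p up to 0.133).

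The endothelial markers did not follow Flt1. Of 14 such markers, 12 in Tg and 13 in WT were near background at PND 42 in either housing, and their mean level lay between 3.52 and 3.88 on the Tg arrays and between 3.37 and 3.45 on the WT arrays of GF mice. Kdr, the second main VEGF receptor and an endothelial marker, stayed between 2.89 and 3.52 in Tg and 2.97 and 3.35 in WT at PND 42. Pecam1 and Vwf were the members of the list that rose in GF Tg macrophages, by 2.30 ± 0.34 (adjusted p = 3.77e-05) and 0.88 ± 0.18 (adjusted p = 0.00103), which is opposite to Flt1. Pecam1 is also carried by leukocytes. Among 9 other VEGF ligands and receptors, 2 rose and 0 fell in Tg at PND 10: Vegfa, a ligand of Flt1, by 1.06 ± 0.19 (adjusted p = 0.00118), and the co-receptor Nrp2 by 0.72 (adjusted p = 0.00118). In GF mice, of these 9, Nrp2 alone rose, by 0.98 (adjusted p = 4.81e-05). Between PND 0 and PND 10 Vegfa moved opposite to Flt1 as well. Its values in Tg were 7.62, 7.33 and 6.87 at PND 0 and 4.97, 4.20, 4.66 and 4.99 at PND 10. Those in WT were 6.48, 7.35 and 7.27 at PND 0 and 3.41, 3.53, 3.82 and 3.85 at PND 10. Its late change, at PND 42 in GF housing over PND 10, did not pass in Tg (-0.63, adjusted p = 0.0874) or WT (0.14, adjusted p = 0.941).

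Kazald1 was the third early riser. It encodes a secreted protein with a Kazal-type serine protease inhibitor domain and an insulin-like growth factor binding domain. In WT macrophages it was read at 5.37, 6.02 and 6.57 at PND 0, 7.84, 8.76, 8.71 and 8.60 at PND 3, 8.50, 8.88, 8.65 and 7.96 at PND 10, and 9.18, 9.01, 9.22 and 9.15 at PND 42. Tg macrophages gave 4.60, 5.74 and 5.70 at PND 0, 6.88, 6.60, 6.31 and 6.86 at PND 3, 7.07, 7.62, 7.61 and 6.83 at PND 10, and 7.13, 7.29, 7.37 and 6.51 at PND 42. From PND 3 on every WT array was above every Tg array of its age, and all of these WT arrays but replicate 1 of PND 3 were above every Tg array of any age. The gain at PND 10 over PND 0 was 1.94 ± 0.37 in Tg (adjusted p = 0.000123) and 2.51 ± 0.37 in WT (adjusted p = 3.99e-06). The PND 10 difference of -1.22 between Tg and WT (95% CI -1.92 to -0.51) had an adjusted p of 0.0726 and passed in 5 of 20 alternatives, such as without the same 3 libraries (0.00709) and without WT replicate 4 of PND 10 (0.0433). In GF mice Kazald1 was at 7.90, 7.21 and 5.50 in Tg, against 8.95, 9.32 and 9.29 in WT.

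Inka1 was the gene whose PND 10 loss was clearest. It encodes an inhibitor of the kinase PAK4, which acts on actin and cell adhesion. WT values were 5.08, 4.65 and 4.72 at PND 0, 5.04, 5.04, 5.52 and 5.74 at PND 3, 6.54, 6.56, 5.95 and 5.78 at PND 10, and 5.16, 6.24, 5.17 and 5.62 at PND 42. Tg values were 4.33, 4.30 and 4.56 at PND 0, 4.27, 3.83, 4.06 and 4.05 at PND 3, 4.71, 4.11, 4.13 and 4.24 at PND 10, and 4.07, 3.77, 3.23 and 3.44 at PND 42. Tg and WT arrays did not overlap at any age. At PND 0, with 3 arrays a group, 6.69% of all features lay wholly lower in Tg. The PND 0 difference of Inka1, -0.42, did not pass the test (adjusted p = 0.537). In GF mice Inka1 was at 3.94, 3.77 and 3.65 in Tg, against 4.57, 6.12 and 5.01 in WT. By PND 10 the level had changed over PND 0 by -0.10 ± 0.28 in Tg (adjusted p = 0.845), while it rose by 1.39 ± 0.28 in WT (adjusted p = 0.000276). At PND 10 Inka1 was 1.91 ± 0.26 lower in Tg, a 3.76-fold difference (adjusted p = 2.8e-05, and at most 0.0028 over 20 alternatives). The difference between the PND 10 and the PND 0 genotype effects was -1.49 (adjusted p = 0.0434), which no longer passed in 14 of 26 alternatives, 8 of them with 1 array left out (WT replicate 2 or Tg replicate 1 or 3 of PND 0, and WT replicate 1 or 2 or Tg replicate 2, 3 or 4 of PND 10; adjusted p of 0.0702 to 0.0939), and reached 0.13 with array weights. Inka1 changed by -0.97 in WT at PND 42 in GF housing over PND 10 (adjusted p = 0.0785), which passed without WT GF replicate 2 (-1.41, 0.00435).

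Cpne5 and Tnfsf13b were acquired late. Cpne5 encodes a copine, a family of proteins that bind membrane phospholipid in the presence of calcium. Its WT values were 3.11, 3.06 and 3.30 at PND 0, 3.59, 3.52, 3.69 and 3.77 at PND 3, 4.30, 4.42, 3.97 and 4.48 at PND 10 and 8.18, 7.74, 8.19 and 8.07 at PND 42. Its Tg values were 3.34, 3.20 and 3.33 at PND 0, 3.46, 3.56, 2.98 and 3.15 at PND 3, 3.21, 3.79, 3.70 and 3.49 at PND 10, and 6.21, 6.05, 6.01 and 5.92 at PND 42. Cpne5 was near background at birth and at PND 3 in both genotypes, and its adult level in Tg was between the neonatal and the adult WT levels. At PND 10 over PND 0 it changed by 0.26 ± 0.32 in Tg (adjusted p = 0.611) and rose by 1.14 ± 0.32 in WT (adjusted p = 0.00665). At PND 42 in GF housing it rose over PND 10 by 2.26 ± 0.32 in Tg (adjusted p = 2.81e-05, lost with the compared groups alone at 0.0944) and 3.87 ± 0.32 in WT (adjusted p = 2.83e-09), the largest late gain of the 10 genes in either genotype.

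Tnfsf13b encodes BAFF, a cytokine of the TNF family that keeps B cells alive. Its Tg values at PND 42 were 2.84, 2.88, 3.19 and 3.21 in SPF and 3.03, 3.21 and 2.83 in GF housing, against WT values of 5.09, 4.84, 5.35 and 5.10 in SPF and 4.59, 5.43 and 5.27 in GF housing. All 22 arrays of PND 0, 3 and 10 lay between 2.66 and 3.79, so that only adult WT macrophages had a level above background. At PND 42 in GF housing over PND 10 the change was -0.15 ± 0.18 in Tg (adjusted p = 0.874) and 1.84 ± 0.18 in WT (adjusted p = 2.32e-07), and the genotype effect at PND 42 in GF housing minus that at PND 10 was -1.98 ± 0.26 (adjusted p = 3.9e-05). A small gain in WT at PND 10 over PND 0 (0.50, adjusted p = 0.0442) lay between 2 means near background and was lost in 12 of 20 alternatives, among them those without any 1 of the 3 WT arrays of PND 0 or without WT replicate 1, 3 or 4 of PND 10 (adjusted p of 0.0583 to 0.134). The second Tnfsf13b feature was lower in GF Tg macrophages by 1.05 (adjusted p = 8.33e-05), so both features had the adult difference, of different size. The receptors of BAFF, Tnfrsf13b, Tnfrsf13c and Tnfrsf17, were at 4.31, 3.93 and 2.88 in Tg and 4.34, 3.78 and 2.93 in WT of GF mice, and none of the 5 other measured genes of this system passed the test there (lowest adjusted p = 0.378, for Nfkb2, a subunit of NF-kappaB).

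Gal and Epcam were present at birth, had their lowest group means at PND 10 (Gal) and PND 3 (Epcam), and were high again in adult WT macrophages. Gal encodes galanin, a neuropeptide that acts through G protein-coupled receptors. Its Tg values were 7.10, 8.38 and 7.76 at PND 0, 7.52, 6.99, 5.76 and 7.13 at PND 3, 6.54, 7.07, 6.28 and 5.21 at PND 10 and 7.72, 7.71, 7.99 and 6.24 at PND 42. Its WT values were 8.12, 7.97 and 8.43 at PND 0, 8.33, 8.29, 8.40 and 8.06 at PND 3, 7.25, 7.56, 7.83 and 7.30 at PND 10 and 9.95, 9.91, 9.80 and 9.81 at PND 42. The adult WT arrays lay close together and above every other SPF array. In GF mice the rise at PND 42 over PND 10 was 0.92 ± 0.47 in Tg (adjusted p = 0.415) and 2.11 ± 0.47 in WT (adjusted p = 0.0115, lost without WT GF replicate 2 or 3 at up to 0.0731). The fall of Gal by PND 10 from its PND 0 level passed in Tg (-1.47, adjusted p = 0.0156, lost in 4 of 19 alternatives, without Tg replicate 2 of PND 0 and replicate 4 of PND 10 among them, at up to 0.106) and not in WT (-0.68, adjusted p = 0.337). The galanin receptors Galr1 and Galr2 and the related peptide gene Galp were all near background in GF macrophages, at 2.92 to 3.40 in Tg and 2.78 to 3.48 in WT.

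Epcam, the epithelial cell adhesion molecule CD326, is carried by epithelia and also by some leukocytes. Its Tg values were 7.55, 7.14 and 7.01 at PND 0, 3.87, 3.87, 4.03 and 3.88 at PND 3, 4.08, 3.95, 4.42 and 3.84 at PND 10, and 4.67, 4.63, 4.93 and 4.44 at PND 42. Its WT values were 6.90, 6.89 and 7.31 at PND 0, 3.81, 4.42, 4.25 and 4.09 at PND 3, 4.06, 4.81, 4.23 and 4.54 at PND 10, and 6.91, 6.43, 7.25 and 6.50 at PND 42. By PND 10 Epcam had fallen from its PND 0 level by 3.16 in Tg (adjusted p = 5.89e-11) and by 2.62 in WT (adjusted p = 3.62e-09). The level at birth went with that of the epithelial markers, 17 of 18 of which fell by PND 10 in WT, with a median change of -4.25, and the part of epithelial RNA in it was not tested. The adult level did not go with them: in GF mice 9 of the 18 markers were near background in each genotype, the list averaged 4.51 to 4.82 in Tg and 4.46 to 4.58 in WT, and the 3 markers that passed, Scgb1a1, Scgb3a2 and Cdh1, were higher in Tg, by 1.96, 1.46 and 1.42 (adjusted p = 0.0155, 0.000391 and 4.24e-05), where Epcam was lower. Cdh1 encodes E-cadherin, which macrophages also carry. Epcam rose at PND 42 in GF housing over PND 10 by 1.28 ± 0.26 in Tg (adjusted p = 0.00341, lost without Tg GF replicate 1 at 0.0715 and with the compared groups alone at 0.145) and 2.44 ± 0.26 in WT (adjusted p = 8.43e-07). In GF mice it was at 6.33, 5.16 and 4.57 in Tg, against 6.59, 7.23 and 6.74 in WT.

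Nt5e and Trim59 were not matched to either course. Nt5e encodes CD73, the ectoenzyme that turns AMP into adenosine on the cell surface. Its Tg values were 7.46, 8.02 and 8.23 at PND 0, 7.88, 8.21, 7.99 and 8.06 at PND 3, 8.44, 8.34, 8.08 and 7.57 at PND 10, and 5.80, 5.62, 4.81 and 4.23 at PND 42. Its WT values were 8.05, 8.46 and 7.74 at PND 0, 7.72, 7.77, 7.84 and 7.66 at PND 3, 7.14, 7.97, 7.67 and 7.23 at PND 10, and 7.13, 7.00, 7.11 and 7.15 at PND 42. At PND 3 every Tg array was above every WT array (fitted difference 0.28), where 4.63% of all features did so. At PND 42 in SPF housing every Tg array was below, where 5.64% of all features did so. These arrays chose the genes, so this change of order is a description only. In GF mice Nt5e was at 6.03, 5.59 and 4.95 in Tg, against 8.41, 8.04 and 7.42 in WT. In the tested arrays Nt5e differed by 0.61 between Tg and WT at PND 10 (95% CI 0.05 to 1.17, adjusted p = 0.382) and by -2.44 in GF mice at PND 42 (adjusted p = 4.33e-06), and the 2 effects differed by -3.04 ± 0.42 (adjusted p = 7.12e-05), a change that passed under all 26 alternatives (adjusted p up to 0.00582). Nt5e fell by 2.59 at PND 42 in GF housing relative to PND 10 in Tg (adjusted p = 1.32e-06) and changed by 0.46 ± 0.30 in WT (adjusted p = 0.696). The other genes of extracellular ATP and adenosine handling did not share this: of 11 measured, 0 passed the limma test in GF mice, and Entpd1, the enzyme CD39 that makes AMP for CD73, was at 8.75 in Tg and 8.65 in WT.

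Trim59, a ubiquitin ligase of the tripartite motif family, differed mainly in neonates. Its values at PND 3 were 4.42, 4.30, 5.08 and 4.99 in Tg against 6.20, 6.34, 6.47 and 6.50 in WT. At PND 0 they were 6.04, 4.19 and 4.48 in Tg and 5.07, 5.76 and 6.12 in WT, and at PND 10 5.78, 6.54, 4.96 and 5.13 in Tg and 6.47, 6.26, 6.75 and 5.39 in WT. The ranges overlapped at both ages. In adults they overlapped too, with 6.03, 4.63, 6.14 and 5.48 in Tg and 6.25, 4.88, 6.39 and 5.49 in WT in SPF housing, and 6.20, 5.93 and 5.27 in Tg and 6.64, 6.04 and 6.35 in WT in GF housing. The SPF difference of -0.18 turned positive without WT replicate 3 (0.03) or Tg replicate 2 (0.13), so that the label of a lost gene holds for Trim59 at PND 3 only. None of its tested differences passed, with Tg minus WT of -0.75 at PND 0 (adjusted p = 0.446), -0.61 at PND 10 (adjusted p = 0.642) and -0.55 in GF mice (95% CI -1.49 to 0.39, adjusted p = 0.711). Its change in Tg at PND 10 over PND 0 (0.70, adjusted p = 0.248) passed without Tg replicate 1 of PND 0 (1.27, 0.033).

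The changes with age can be counted over the 10 genes in each genotype. At PND 10 over PND 0, 3 genes rose in Tg (Coro6, Flt1 and Kazald1), where 16.7% of all features rose, and 2 fell (Epcam and Gal), where 13.9% of all features fell. In WT 6 rose (the same 3 with Inka1, Cpne5 and Tnfsf13b), where 14% of all features rose, and 1 fell (Epcam), where 12% of all features fell. Centring each array on its median, in place of the deposited scale, raised all changes by 0.241 in Tg and by 0.226 in WT at this step and moved the split of all features from 4846 higher and 4026 lower to 13848 and 2799 in Tg, and from 4053 and 3462 to 10145 and 2240 in WT, so these shares depend on the scale. At PND 42 in GF housing over PND 10, 3 rose in Tg (Cpne5, Epcam and Flt1), against 2.06% of all features, and 1 fell (Nt5e), against 1.55%. In WT 5 rose (Cpne5, Epcam, Gal, Tnfsf13b and Flt1), against 0.743% of all features. Age and housing changed together in this last step. A higher count in WT is not a test of the genotypes' difference, which is given by the interactions: 1 of 10 genes passed lower for PND 10 against PND 0 (Inka1; 0.916% of all features) and 2 of 10 for GF PND 42 against PND 10 (Nt5e and Tnfsf13b; 0.204% of all features). Cpne5 missed the second at an adjusted p of 0.0921, and passed without Tg GF replicate 1 (1e-05), as did Epcam (0.00324). The late counts and the late interaction use GF arrays, which may have helped to pick the genes. They are given as a description and not as independent support.

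**Figure D2:**
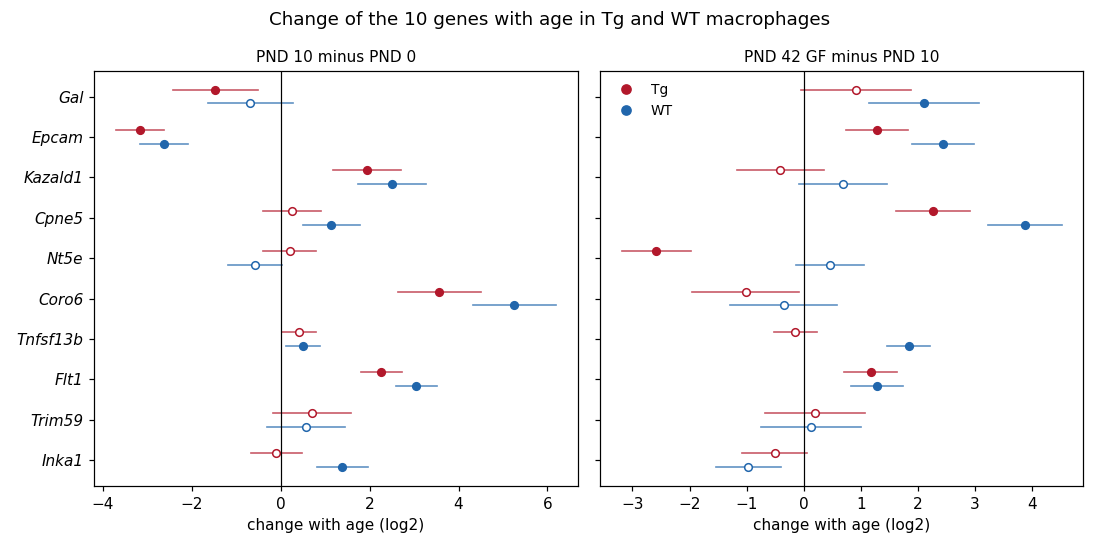
Fitted change with age (log2) of each gene, with its 95% confidence interval, in Tg (red, upper of each pair) and WT (blue, lower) macrophages, at PND 10 over PND 0 on the left and at PND 42 in GF housing over PND 10 on the right. Filled points passed an adjusted p of 0.05. Coro6 has the largest early gain (3.56 in Tg and 5.26 in WT), Cpne5 the largest late gain, and Nt5e falls in Tg alone at the late step.

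The genotype comparison was tested at 3 points, PND 0, PND 10 and PND 42 in GF housing, of which the last may have had a part in the choice of the genes. At PND 0, 0 of 10 genes passed the limma test, where 1.59% of all features were lower, 0 had an unadjusted p under 0.05, and the test without moderation gave 0 as well. At PND 10, 2 of 10 were lower in Tg (Inka1 and Flt1), where 0.435% of all features were, and the Tg arrays lay entirely below the WT arrays for 6 (also Coro6, Kazald1, Gal and Cpne5), where 2.9% of all features did so. The difference was negative for 9 of 10, with Nt5e the exception. The median difference of the 10 genes was -0.81, against 0.01 over all features. In GF mice at PND 42, 9 of 10 were lower in Tg, where 1.77% of all features were, and the same 9 did not overlap, where 12.1% of all features did so. Since the GF arrays may have helped to pick the genes, these 2 counts are given as a description and not as independent support. The median difference there was -2.12, against -0.02 over all features.

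In GF mice the tested losses were -2.44 ± 0.32 for Nt5e (adjusted p = 4.33e-06), -2.40 ± 0.50 for Gal (0.00254), -2.36 ± 0.34 for Cpne5 (2.04e-05), -2.32 ± 0.40 for Kazald1 (0.000274), -2.17 ± 0.49 for Coro6 (0.00529), -2.08 ± 0.20 for Tnfsf13b (2.65e-08), -1.50 ± 0.28 for Epcam (0.000808), -1.45 ± 0.30 for Inka1 (0.00231) and -0.98 ± 0.24 for Flt1 (0.0122). The differences of Tnfsf13b and Inka1 are lower bounds, since their Tg means of 3.02 and 3.79 were near background. The measured folds were 1.97 for Flt1 and 5.41 for Nt5e, for example. Fitted on the 6 GF arrays alone, 2 of 10 remained past the threshold, Nt5e (adjusted p up to 0.0116 over its 18 alternatives) and Tnfsf13b (up to 0.00509), and the other 7 had adjusted p values of 0.0597 to 0.12. Without Tg GF replicate 3, 6 of 10 passed, and Gal (-1.68, adjusted p = 0.0653), Coro6 (-1.47, 0.121) and Flt1 (-0.75, 0.172) did not. Flt1 was also lost without WT GF replicate 2 (0.0609).

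**Figure D3:**
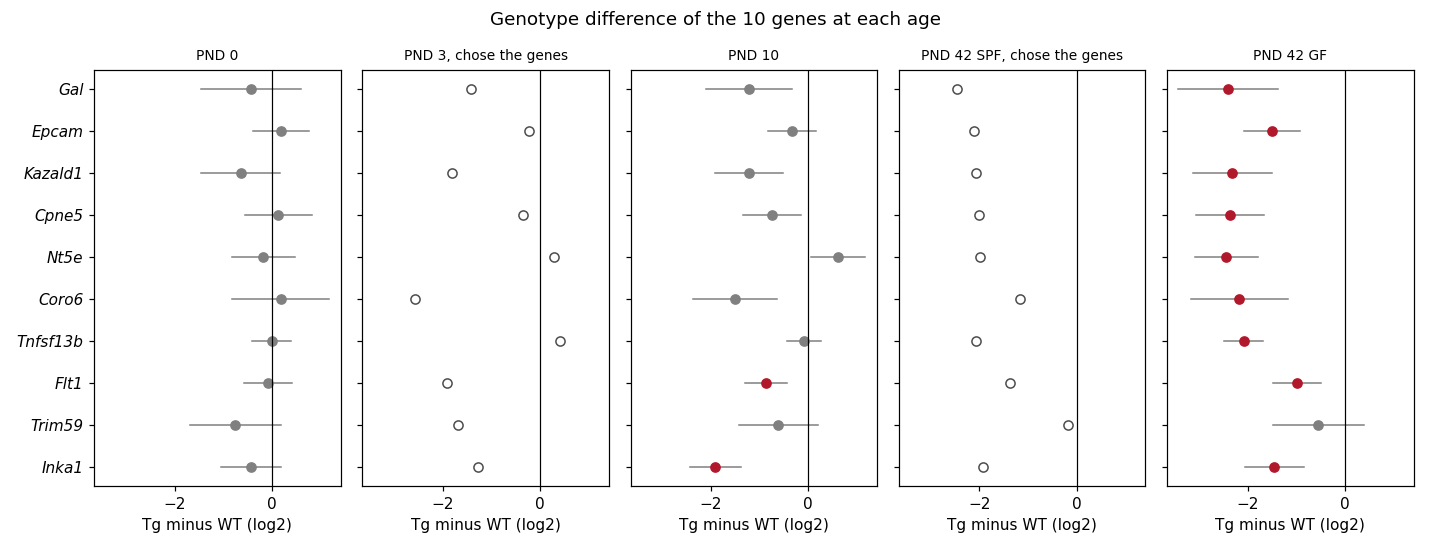
Tg minus WT difference (log2) of each gene at each age and housing. Open points at PND 3 and PND 42 SPF are comparisons that chose the genes and carry no test, and it is not certain that the GF comparison had no part in the choice. At the other ages, bars are 95% confidence intervals and red points passed an adjusted p of 0.05, namely Flt1 and Inka1 at PND 10 and all genes but Trim59 in GF mice.

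The 3 Tg arrays of GF mice differed widely from each other in these genes. Gal was at 8.57, 7.26 and 5.75 in GF Tg replicates 1, 2 and 3, against 9.20, 9.67 and 9.91 in GF WT. Cpne5 was at 7.30, 5.64 and 4.48 in GF Tg, against 7.99, 8.33 and 8.18 in GF WT. Coro6 was at 6.99, 6.51 and 4.66 in GF Tg, against 8.48, 8.39 and 7.80 in GF WT. Replicate 3 was the lowest of the 3 Tg arrays for 10 of 10 genes and replicate 1 the highest for 9 of 10. The mean level of the 10 genes was 6.45, 5.81 and 4.89 on these arrays, with an SD of 0.781, while the SD of the same mean in the other 9 groups was at most 0.242. In SPF housing the Tg arrays had 5.94, 5.69, 5.81 and 5.39, and the WT arrays lay between 7.29 and 7.55 in SPF and between 7.41 and 7.75 in GF housing. The separation of Tg from WT in this mean follows from the choice of the genes in SPF housing and may do so in GF housing.

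Some genes listed as markers of other leukocytes were higher in adult Tg macrophages. On the GF Tg arrays the eosinophil and monocyte lists were highest on replicate 3, which was lowest for the 10 genes. Both lists were lowest on replicate 2, which had the middle level of the 10 genes. Of all features, 3.14% were higher and 1.77% lower in GF Tg macrophages. Among the eosinophil markers 6 of 8 rose and 0 fell, among them Alox15 (4.56, adjusted p = 4.35e-05), Prg2 (3.68, 0.00118), Ear6 (3.19, 7.93e-05) and Ccr3 (2.87, 0.00102). The list averaged 5.88, 4.68 and 6.88 on the GF Tg arrays, highest on replicate 3 and lowest on replicate 2, and 3.42 to 3.62 on the GF WT arrays, where 7 of the 8 were near background, Prg2, Ccr3 and Alox15 included. It averaged 5.37, 4.22, 4.93 and 4.50 in Tg replicates 1 to 4 and 3.50 to 3.55 in WT of SPF mice, so that Tg replicate 1 was highest there for the eosinophil list and for the 10 genes alike. Of 10 interstitial macrophage and monocyte markers 4 rose and 1 fell, Itgam by 4.75 (adjusted p = 5.59e-08), and the list averaged 6.12, 5.89 and 6.79 in GF Tg against 5.03 to 5.23 in GF WT. Of 10 dendritic cell markers 5 rose, such as Ccl17 by 3.17 (adjusted p = 0.00598). The list spanned 5.48 to 6.05 in GF Tg and 4.51 to 4.80 in GF WT. Of 7 measured T cell markers 4 rose, Cd3e most, by 1.71 (adjusted p = 0.00031), with 3.68 to 4.33 in GF Tg and 3.12 to 3.22 in GF WT, where all 7 were near background. Of 14 neutrophil markers 3 rose and 1 fell, led by S100a9 (5.26, adjusted p = 0.000377), with the list at 5.06 to 5.70 in GF Tg and 4.48 to 4.51 in GF WT. By the study's cell counts the GF Tg preparations were mostly macrophages, with few eosinophils. The part of other leukocytes in the loss of the 10 genes was not tested.

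The alveolar macrophage list did not separate Tg from WT in adults as the 10 genes did. Its order over the GF Tg replicates was that of the 10 genes, and replicate 3 lay below every GF WT array. It averaged 10.01, 9.95 and 9.76 on the GF Tg arrays and 9.87 to 9.97 on the GF WT arrays, and 9.96 to 10.14 in Tg and 9.98 to 10.11 in WT of SPF mice. Of its 24 measured members 3 fell in GF Tg macrophages, Fabp1 (-1.68, adjusted p = 0.0254), Cidec (-1.57, 0.00462) and Krt19 (-0.83, 0.0107), and 4 rose, Fabp4 (1.95, 0.000725), Ctsk (1.63, 0.000337), Cd36 (1.20, 3.05e-06) and Fabp5 (0.92, 1.63e-07). Over all features 1.77% fell and 3.14% rose. Fabp4, Fabp5 and Cd36 serve fatty acid uptake and transport. The median difference of the list was 0.06, against -2.12 for the 10 genes. At PND 10 the list averaged 9.46 to 9.64 in Tg and 9.67 to 9.82 in WT, with no overlap, while its median difference was 0.04, against 0.01 over all features, and 5 of 24 were lower (Cidec -1.52, adjusted p = 0.00388, Krt79 -1.39, 0.0331, Cd2 -1.31, 0.00113, Krt19 -0.77, 0.0138, and Pparg -0.55, 0.0424) and 1 higher (Ctsk). Over all features at PND 10, 0.435% were lower and 1.13% higher in Tg. At PND 3 the list was again separate, at 8.89 to 9.21 in Tg and 9.38 to 9.60 in WT. The neutrophil list was then at 6.35 to 7.46 in Tg and 4.96 to 6.12 in WT.

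**Figure D4:**
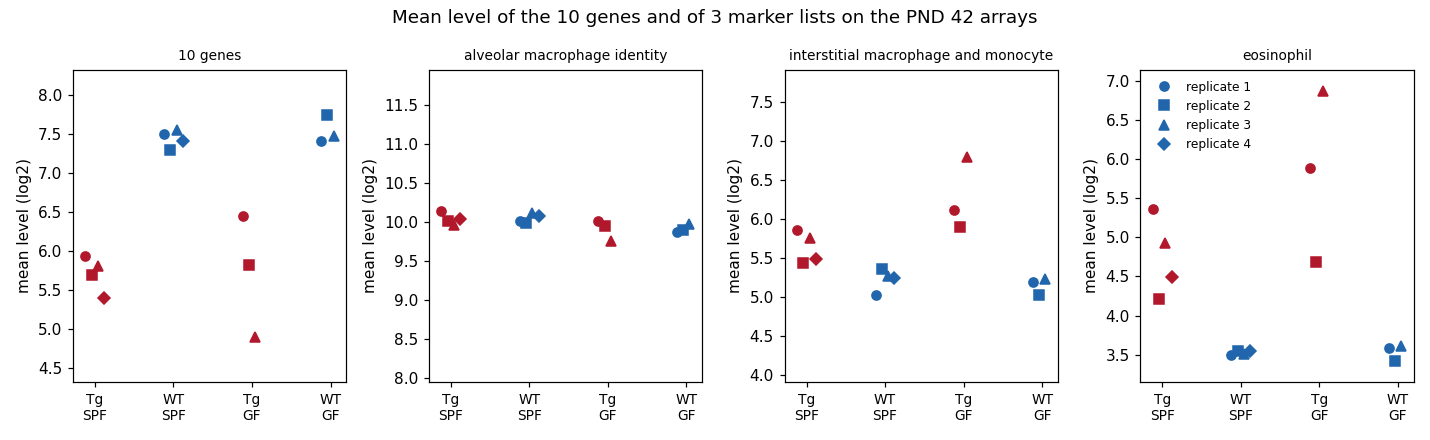
Mean log2 level of the 10 genes and of the alveolar macrophage, monocyte and eosinophil marker lists on each PND 42 array, with Tg in red and WT in blue and a symbol for each replicate number. All 4 panels span the same 4 log2 units. Tg GF replicate 3 (triangle) is lowest for the 10 genes (4.89) and highest for the eosinophil list (6.88), while the alveolar macrophage list stays within 9.76 to 10.14.

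Relatives of the 10 genes mostly did not share the adult loss. Of 6 other coronins 1 was lower in GF Tg macrophages, Coro1a, by 1.02 (adjusted p = 0.0028), a leukocyte coronin. Of 7 other copines Cpne8 was lower by 0.59 (adjusted p = 0.0223) and Cpne2 higher by 2.11 (adjusted p = 7.27e-05). Of 11 insulin-like growth factor genes and binding proteins, set beside Kazald1, 2 were higher and 0 lower, Igf1 by 4.08 (adjusted p = 4.18e-08) and Igfbp6 by 1.61 (adjusted p = 0.00794). Igf1 had the opposite course to the late risers in WT, with a fall of 2.56 at PND 42 in GF housing over PND 10 (adjusted p = 8.96e-05). Of 8 Inka and PAK genes 0 passed the limma test in GF mice, and Pak4, the kinase that Inka1 inhibits, was at 5.34 in Tg and 5.43 in WT. Of 17 genes of the GM-CSF and TGF-beta signals that mature alveolar macrophages, 2 were lower in GF Tg macrophages, Tgfbr1 by 0.42 (adjusted p = 0.0303) and Cebpa by 0.41 (adjusted p = 0.0421), and none higher. At PND 10 over PND 0 in WT, 7 of the 17 rose, among them Csf2rb2 (1.41), Tgfbr1 (1.13) and Csf2ra (0.98), and 2 fell, where 14% of all features rose and 12% fell.

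Across the 10 group means, Kazald1 and Coro6 were most alike (Pearson r = 0.928), followed by Coro6 and Flt1 (r = 0.895). Epcam and Nt5e were least like the mean of the other members (r = 0.167 and -0.04). Averaged over the 10 standardised profiles, the level was lowest in Tg PND 3 (-0.72 SD) and Tg PND 0 (-0.63 SD), stayed between -0.40 and -0.33 SD in all 3 later Tg groups and was -0.37 SD in WT PND 0, 0.21 in WT PND 3, 0.35 in WT PND 10, 1.05 in WT PND 42 SPF and 1.18 in WT PND 42 GF. The genes outside the 10 whose group means went most closely with this profile were Cx3cl1 (r = 0.966), Tespa1 and Marveld1 (both 0.963), Iqgap2 (0.958) and Tlr5 (0.956). Cx3cl1 encodes fractalkine, and was at 5.72 in Tg and 6.91 in WT of GF mice. Tlr5, the flagellin receptor, was at 5.75 in Tg and 7.81 in WT, and Iqgap2, a scaffold protein, at 5.96 in Tg and 7.78 in WT. These correlations are over 10 means that share ages, arrays and the genotype contrast that chose the genes, and serve as a description only.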

How the data were processed

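RNA of lavage macrophages (12 ng per array, amplified with the Ovation Pico WTA V2 kit) was labelled and read on the Mouse Gene 1.0 ST array of Affymetrix. The deposited log2 values were made by the authors in Partek (6.5 per the labels) with RMA, that is background adjustment, quantile normalization and median polish, which removes differences in overall level between arrays and compresses differences near background. Of 35556 features, 6616 numbered below the first annotated feature were taken for control features and not tested, and of the remaining 28940, 21218 had 1 gene symbol, 1881 several and 5841 none, and of several features with a symbol the one of highest mean was used. No column was left unused (0 columns), and 0 pairs of arrays held identical values.

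The labels give genotype, age, housing and a replicate number, and 10 groups of 3 or 4 arrays were formed. Each feature was fitted over all 36 arrays (limma 3.58.1, R 4.3.3), after the study's analysis of variance with linear contrasts, with moderated two-sided tests and Benjamini-Hochberg adjustment over the 28940 features of each of 9 contrasts. A gene rose or fell at an adjusted p of 0.05. With 3 arrays a group, an exact permutation test has 0.1 as its smallest p, and calls at PND 0 or in GF housing therefore draw on the variance shared over groups. The number of arrays limits the precision. P-values measure the spread between arrays, which for PND 0, 3 and 10 is between pools. The fit was checked on simulated data.

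The 10 genes, the marker and pathway lists and the tests were chosen with earlier results of these data known. Named were all 10 genes, up to 4 called genes of a list with the largest change, Vegfa and Kdr beside Flt1, Scnn1b and Scgb1a1 as a check of the labels, and the 5 genes most like the mean profile. Saa3 and Lcn2 were named as well, for the PND 3 arrays. Lists of skeletal muscle, fibroblast, B cell, Trim59-related and Epcam-partner genes were also counted, and in GF mice 0 of 13, 1 of 12, 1 of 8, 0 of 6 and 1 of 8 measured genes rose and none fell. Alternatives were other limits, fits on the compared groups alone, array weights, other scalings and priors, no moderation, other feature sets, blocking on the replicate number, and omission of single arrays. The fit without 3 arrays and the second Tnfsf13b feature were added after the data were seen.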

Additional observations from a re-analysis of the deposited data

Results flagged for a closer look

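Of 60 groups of 4 arrays examined, 3 had an array set apart from the other 3 by Dixon's criterion, which chance alone does in about 5% of groups. Gal in Tg replicate 4 at PND 42 in SPF housing was 6.24, against 7.71 to 7.99 on the other 3 arrays. Epcam in Tg replicate 3 at PND 3 was 4.03, against 3.87 to 3.88, a gap among values near background. Coro6 in WT replicate 4 at PND 10 was 8.02, against 8.71 to 8.82, and without this array Coro6 and Kazald1 were past the threshold at PND 10 (adjusted p = 0.0488 and 0.0433).

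The genotype effect of 3 genes differed between ages by the test of the difference itself. It was lower in GF mice at PND 42 than at PND 10 by -3.04 for Nt5e (adjusted p = 7.12e-05) and by -1.98 for Tnfsf13b (adjusted p = 3.9e-05), and lower at PND 10 than at PND 0 by -1.49 for Inka1 (adjusted p = 0.0434). For Nt5e and Tnfsf13b the test rests on GF arrays, which may have helped to choose the genes.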

How the results depend on the processing

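Over 90 differences of single genes and 1849 repeats of them under alternatives, 1773 kept their side of the threshold, 57 lost and 19 gained a call, and 0 reversed among those called in either fit. The fit on the compared groups alone left 2 genes lower in GF Tg macrophages (9 in the fit over all arrays), 0 higher at PND 42 in GF housing over PND 10 in Tg (3 over all arrays) and 0 for the PND 10 minus PND 0 interaction (1 over all arrays), while at PND 10 it left 3 (2 over all arrays). That interaction also gave 0 with array weights, with quantile normalization again, without moderation and with all features kept. At PND 10, 4 genes were lower with array weights, with dim features left out and without the 3 doubted arrays, and 1 was lower with the 2-fold limit, against 2. With 1 array left out the counts ran from 1 to 4 at PND 10, 6 to 9 in GF mice, 0 to 0 at PND 0, 5 to 6 for the early rise in WT and 3 to 4 in Tg, 4 to 5 for the late rise in WT and 2 to 3 in Tg, 2 to 4 for the late interaction and 0 to 1 for the early one. The cause was not tested. The replicate numbers do not pair the arrays: of 18 same-numbered pairs, 1 deviated together at r over 0.1 (r of -0.126 to 0.244), and 4 arrays were most like their own number. With the replicate number as a random block (consensus correlation -0.0242), 9 genes were lower in GF mice and 2 at PND 10, and no call of a gene changed in any contrast. Group means near background, where array signal limits any difference, were those of Tnfsf13b in all groups but adult WT, Cpne5 at PND 0 and 3 and in Tg at PND 10, Coro6 at PND 0, Epcam in Tg at PND 3, and Inka1 in Tg at PND 3 and at PND 42 in both housings. Counts over all features moved more. Features lower in Tg numbered 126 at PND 10 (21 with the 2-fold limit, 79 with compared groups alone, 329 with array weights), 512 in GF mice (115, 223 and 788, and 157 without the 3 doubted arrays) and 460 at PND 0 (82, 0 and 105). Features higher with age numbered 4053 for the early step in WT (1314 with the 2-fold limit, 2569 with compared groups alone), 4846 in Tg (1546 with the 2-fold limit), 215 for the late step in WT (95 with the 2-fold limit, 533 with array weights) and 595 in Tg (315 with the 2-fold limit, 276 with compared groups alone, 389 without the 3 doubted arrays). The late interaction had 59 lower (36 with the 2-fold limit, 93 with array weights, 28 without the 3 doubted arrays) and the early one 265 (15 with compared groups alone). Median centring moved the split at PND 0 to 682 higher and 637 lower, against 792 and 460. With single arrays left out, the lower features ran from 52 to 187 at PND 10, 143 to 533 in GF mice, 170 to 1284 at PND 0, 20 to 71 for the late and 139 to 849 for the early interaction, and those higher with age in WT at the late step from 105 to 192.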

Other observations

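Trim59 at PND 42 in SPF housing was lowest in replicates 2 and 4 of both genotypes, at 4.63 and 5.48 in Tg and 4.88 and 5.49 in WT, while replicates 1 and 3 were at 6.03 and 6.14 in Tg and 6.25 and 6.39 in WT. Nt5e was 7.42 to 8.41 in WT of GF mice and 7.00 to 7.15 in WT of SPF mice, and 4.95 to 6.03 and 4.23 to 5.80 in Tg of the same housings, so WT separated by housing while Tg did not. Housing was not compared by a test for these genes.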
